A study of Homo sapiens with 6 samples.

Results

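DNA replication machinery genes were examined in the human colorectal cancer line HCT116. They are 48 genes, chosen by symbol for their known part in copying the genome, out of the 50868 genes of the deposited table. The cells had been transfected with the empty vector pcDNA3.1(+), here pcCon, or with the YY2 overexpression vector pcYY2, and polyA RNA was sequenced from 3 samples of each. YY2 is a zinc-finger transcription factor and a homolog of YY1. Whether untransfected cells were removed before RNA was taken is not stated for the RNA-Seq samples. Nothing in the labels says whether the 3 samples of a group came from separate cultures, and the p values then measure only the spread between these samples.

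Chromosomes are copied once per cell cycle. In G1 phase the origin recognition complex (ORC), CDC6 and CDT1 load the ring of MCM2 to MCM7 onto DNA, and at the start of S phase the kinase CDC7-DBF4, CDC45 and the GINS complex turn that ring into the working CMG helicase. DNA polymerases then copy both strands with the help of the sliding clamp PCNA, the single-strand binding protein RPA and a supply of deoxynucleotides (dNTP). Many of these genes are known targets of E2F, the transcription factor family that drives entry into S phase.

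Between 15158360 and 29572882 reads were counted per sample. YY2 itself had an FPKM (fragments scaled to gene length and sample depth) of 2.22, 2.52 and 1.73 in pcCon and 11.6, 11.1 and 11.01 in pcYY2, while YY1 lay between 12.7 and 14.6 in pcCon and between 13.6 and 16.4 in pcYY2 (edgeR adjusted p = 0.26). The epithelial markers EPCAM, KRT8, KRT18 and CDH1 were present in every sample, and KRT8 was higher in pcYY2 (log2 fold change 0.67, edgeR adjusted p = 0.0117). Of the 6 markers of leukocytes, fibroblasts and endothelium, PTPRC, CD3E, COL3A1, PECAM1 and CDH5 stayed at or below an FPKM of 0.244, and COL1A1 lay between 1.90 and 2.66.

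The replication genes differed little between pcCon and pcYY2. All 48 passed the filter on low values, a mean FPKM of at least 1, and were tested with edgeR among 12015 genes, with an adjusted p of 0.05 or less taken as the threshold. RRM2, LIG1, MCM7, RRM1, FEN1 and GINS1 rose and ORC6 fell, whereas the other 41 genes did not pass. The 7 genes are 14.6% of the 48, against 9.37% of all tested genes (4.52% higher and 4.85% lower). The 48 genes were chosen with earlier results of these data known. The changes were small, with log2 fold changes between -0.23 and 0.39 and a median of 0.02, against 0.00197 over all tested genes. In size alone, their median was 0.10, against 0.15 over all tested genes and 0.39 over all genes past the threshold. Estimates were above 0 for 30 genes and below 0 for 18, against 6049 and 5966 of all tested genes.

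The FPKM of the groups did not overlap for 19 of the genes, with pcYY2 above pcCon in 14 and below it in 5. Among all tested genes this was the case for 15.9% in the upward and 19.9% in the downward direction. The 5 were ORC4, ORC6, MCM6, POLE2 and RFC3, and the 14 included PCNA, CDC45, GINS3, PRIM2, POLD1, RFC5, RPA2 and TYMS beside the 6 genes that rose. At an unadjusted p under 0.05, 15 of the 48 genes passed, against 3467 of all 12015 tested genes. For 35 of the 48 genes, the 95% interval of the change lay inside 1.25-fold in either direction, and for 47 it lay inside 1.5-fold, GINS4 being the exception. The estimates for RRM2 and LIG1 alone were beyond 1.25-fold, and 0 were beyond 1.5-fold.

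The count of 6 higher genes was smaller in each fit that left out a sample. It was 2 without sample 1, 2 or 3 of pcCon, and 3 without sample 2 of pcYY2, the deepest library. Among all tested genes, the count of 543 higher genes fell too. It was 163, 138 and 150 without sample 1, 2 and 3 of pcCon, and 272 without sample 2 of pcYY2. RRM2 passed in each of the 6 fits that left out a sample, RRM1 in 5, MCM7 in 4, FEN1 and LIG1 in 1 each, and GINS1 and ORC6 in 0, although all 7 kept their direction. Of 20 mitotic genes tested, 15 rose (75.0%, against 4.52% of all tested genes). The median of the 20 log2 fold changes was 0.33, against 0.02 for the 48 replication genes. Without sample 1, 2 or 3 of pcCon that count was 5, 5 and 6, and without sample 3 of pcYY2 it was 6. Of 16 genes of the G1/S transition, 5 fell, CCND1, CCNE1 and CCNE2 among them (4.85% of all tested genes were lower). Their count was 0 to 4 without one sample. Both lists were chosen with earlier results of these data known. The part of both lists in the values of the replication genes was not tested, and in bulk RNA a larger share of cells in S phase cannot be told apart from more RNA per cell.

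**Figure D1:**
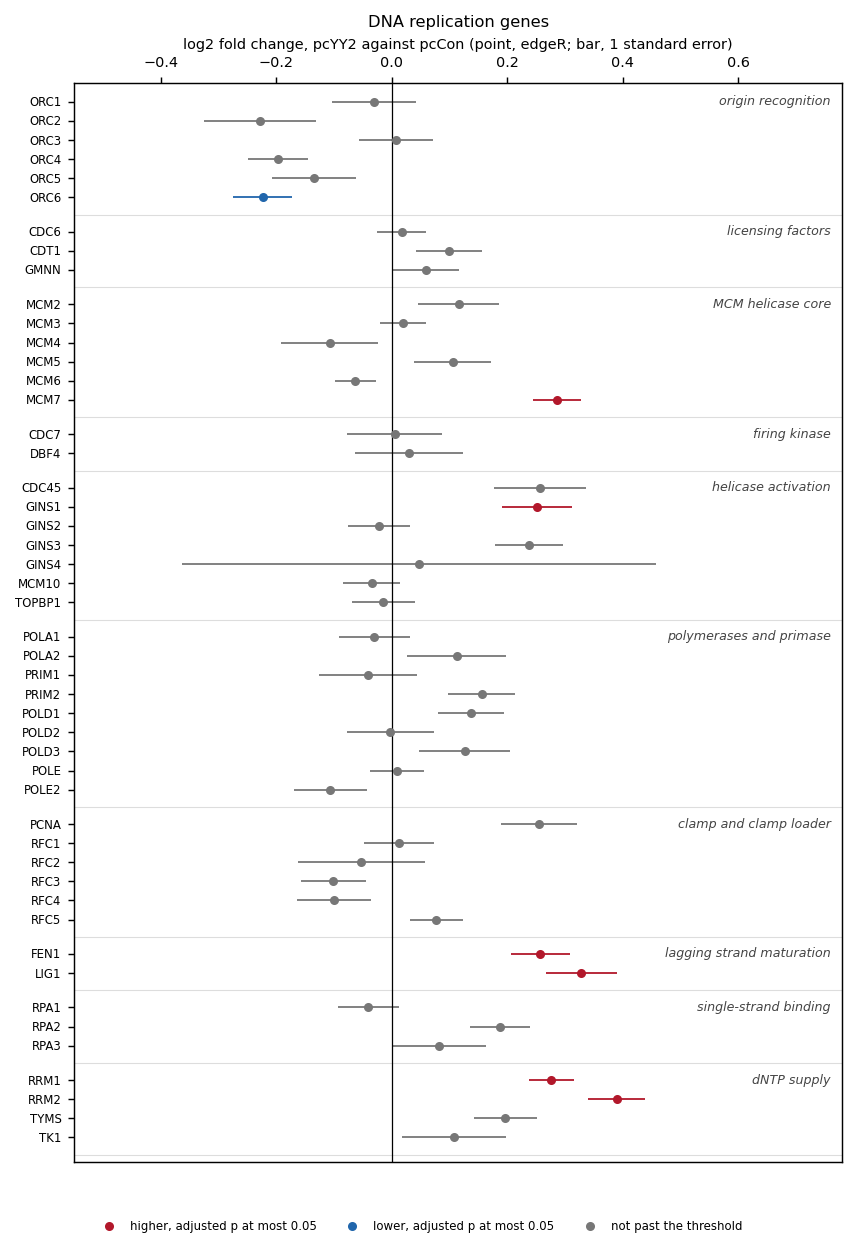
Log2 fold change of each of the 48 replication genes (x axis, pcYY2 against pcCon), grouped by step of replication from origin recognition to dNTP supply. Points are edgeR estimates and bars 1 standard error, with red for the 6 genes that rose, blue for ORC6 and grey for the other 41. Most points lie near 0, and the GINS4 bar is far wider than the others.

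Promoter sequences were read from RefSeq (GRCh38.p14), in windows from 250 bases before to 50 bases after the start of a gene. By symbol, 42 of the 48 genes were matched, as were 8181 of the tested genes. Shares of the tested genes, here and below, are over those 8181. Some genes have more than 1 start, with 35116 windows for 27305 genes, and a gene was counted when any of its windows held a match. An E2F motif (TTTGGCGC, TTTGCCGC, TTTCGCGC or TTTCCCGC, on either strand) occurred in 21 of the 42 genes, or 50%, against 3.99% of all genes of the promoter table and 7.09% of the tested genes. It was in 3 of 6 genes that rose and in 18 of 35 (51.4%) that did not pass, and it was not in the window of ORC6. By step, it was found in all 3 licensing genes and all 4 matched MCM genes, but in 1 of 6 ORC genes and 1 of 4 genes of dNTP supply. The 120 bases before the start are shown for 6 genes, with E2F matches in capitals. MCM7 (minus strand, chr7:100101398-100101517) and LIG1 (minus strand, chr19:48170345-48170464) rose. CDT1 (plus strand, chr16:88803669-88803788), MCM6 (minus strand, chr2:135876444-135876563), PCNA (minus strand, chr20:5126623-5126742) and TYMS (plus strand, chr18:657533-657652) also hold a match and did not pass. In MCM6, matches on both strands overlap and form the longer run of capitals.
MCM7: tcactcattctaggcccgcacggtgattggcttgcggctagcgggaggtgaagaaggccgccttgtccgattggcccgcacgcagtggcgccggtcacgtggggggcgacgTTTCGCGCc
LIG1: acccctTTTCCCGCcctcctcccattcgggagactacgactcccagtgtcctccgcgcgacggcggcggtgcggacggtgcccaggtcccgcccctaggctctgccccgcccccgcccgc
CDT1: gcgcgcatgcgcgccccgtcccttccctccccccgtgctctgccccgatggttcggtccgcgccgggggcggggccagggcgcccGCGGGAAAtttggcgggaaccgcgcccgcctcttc
MCM6: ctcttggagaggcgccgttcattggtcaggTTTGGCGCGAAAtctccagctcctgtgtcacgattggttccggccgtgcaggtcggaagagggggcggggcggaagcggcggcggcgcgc
PCNA: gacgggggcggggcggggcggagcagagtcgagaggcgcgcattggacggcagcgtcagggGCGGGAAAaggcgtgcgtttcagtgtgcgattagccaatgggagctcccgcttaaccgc
TYMS: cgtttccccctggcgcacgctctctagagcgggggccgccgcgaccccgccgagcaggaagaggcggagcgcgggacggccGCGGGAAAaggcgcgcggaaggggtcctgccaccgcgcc

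A shortened form of the motif shared by YY1 and YY2 (GCCATNTT, on either strand) occurred in 3 of the 42 promoters, or 7.14%, against 7.97% of all genes of the promoter table and 13.7% of the tested genes. These were RRM1, which rose, and PRIM2 and POLE2, which did not pass. With the leading C of the full consensus (CGCCATNTT), RRM1 and POLE2 still matched and PRIM2 did not, or 4.76% against 3.85% of all genes of the promoter table and 9.22% of the tested genes. Each match lies just after the start of the gene and is shown in capitals within 30 bases of the gene's own strand, on the plus strand for RRM1 (chr11:4094696-4094725) and PRIM2 (chr6:57314803-57314832) and on the minus strand for POLE2 (chr14:49688188-49688217). A CCAAT box, a common promoter element, was in 24 of the 42 (57.1%), against 39.7% of all genes of the promoter table and 43.1% of the tested genes. A match describes the letters of a window and is no evidence of binding. No YY1/YY2 match overlapped an E2F match, and in MCM7 a CCAAT box overlapped an E2F match by 1 base.
RRM1: tgcccagactcAACATGGCggctacacgtc
PRIM2: gtgatttactgAACATGGCtgctgaaatgt
POLE2: gccaaatcgcaAATATGGCgccggagcggc

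**Figure D2:**
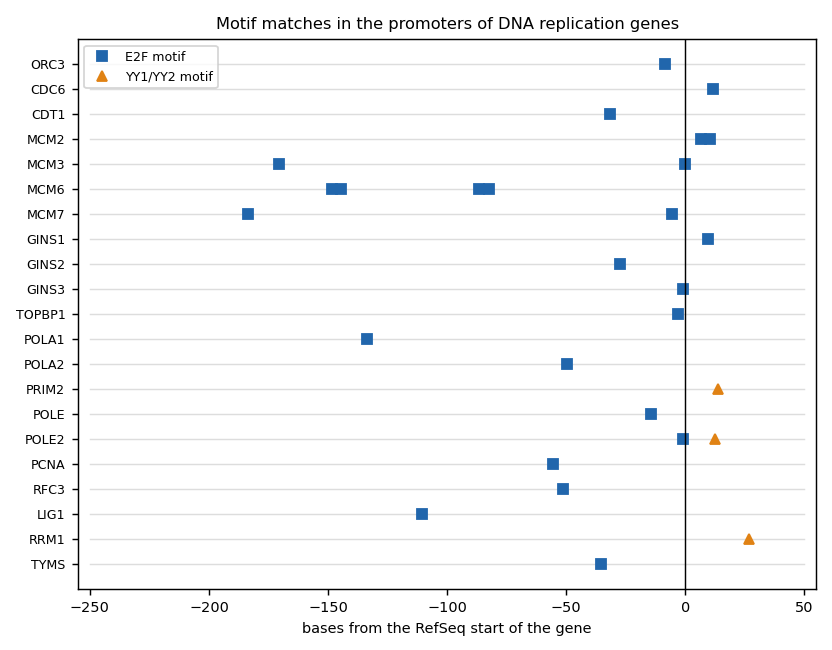
Positions of the E2F motif (blue squares) and of the YY1/YY2 motif (orange triangles) in bases from 1 RefSeq start per gene, the one nearest the annotated start. E2F matches are shown for 19 of the 21 genes, as those of GMNN and CDC7 lie at another start. Of the 25 E2F matches, 17 lie within 60 bases of the start, and the 3 YY1/YY2 matches lie after it.

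In the deposited values, replication genes spanned a wide range of levels. The mean FPKM over the 6 samples went from 3.00 for ORC4 to 198 for PCNA, and within a group the samples differed by a median coefficient of variation of 4.57%. Counts of single genes lay between 330 and 18797 per sample.

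**Figure D3:**
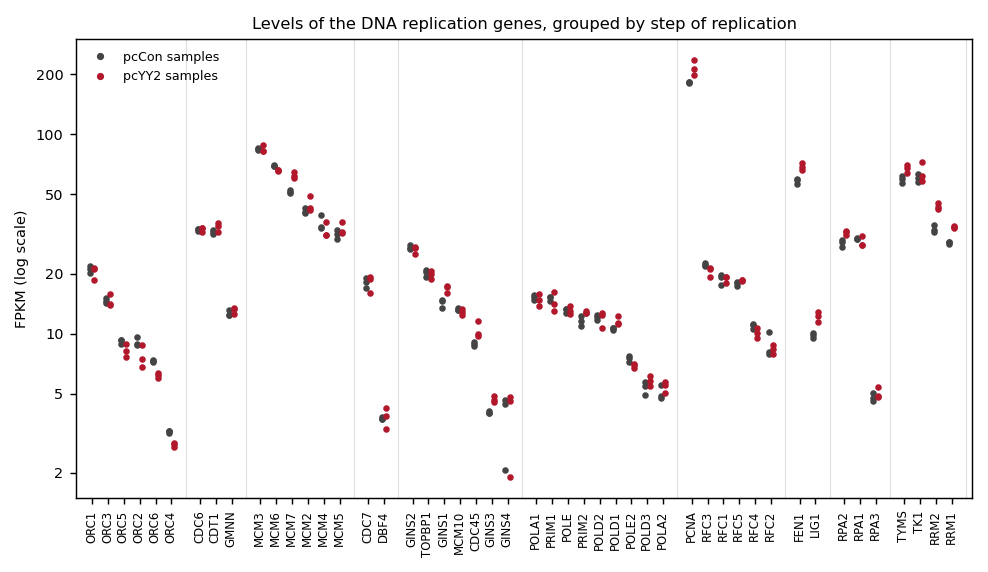
FPKM of the 48 replication genes in each sample (y axis, log scale), grouped by step and ordered by mean level within a step, with 3 pcCon samples in grey and 3 pcYY2 samples in red. PCNA stands highest and ORC4 lowest by mean, and GINS4 has 1 low sample in each group.

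Of the 6 origin recognition genes, 5 had estimates below 0, as had 5966 of the 12015 tested genes. The median log2 fold change of the 6 was -0.17, and ORC6 alone passed. ORC6, the subunit that helps ORC to load the MCM ring, lies on GRCh38 chromosome 16 from 46689643 to 46698394. Its FPKM was 7.24, 7.32 and 7.33 in pcCon and 6.00, 6.18 and 6.38 in pcYY2. The groups were apart, and the log2 fold change was -0.22 (standard error 0.0517, edgeR adjusted p = 0.0437). ORC6 passed in 4 of 15 alternative fits, with adjusted p between 0.0354 and 0.146, and in DESeq2 its adjusted p was 0.0666. ORC1, the ATPase subunit with the highest FPKM of the complex, had 21.1, 21.7 and 20.2 in pcCon and 18.5, 21.4 and 21.2 in pcYY2, and these ranges overlapped (log2 fold change -0.03, edgeR adjusted p = 0.814). ORC4 had an FPKM of 3.23, 3.25 and 3.17 in pcCon and 2.82, 2.71 and 2.81 in pcYY2, with an edgeR adjusted p of 0.0604. Log2 fold changes were -0.23 for ORC2, -0.13 for ORC5 and 0.01 for ORC3, and none of these passed.

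Licensing factors showed no gene past the threshold, either by adjusted p in edgeR or DESeq2 or by an unadjusted p under 0.05 (0 of 3 in edgeR). CDC6, the ATPase that works with ORC to load the MCM ring, had an FPKM of 32.6, 33.5 and 33.6 in pcCon and 33.7, 33.8 and 32.5 in pcYY2. All 6 samples thus lay close together, and the 95% interval of the log2 fold change ran from -0.08 to 0.12. CDT1, which brings the MCM ring to the origin, had 33.0, 32.3 and 31.6 in pcCon and 32.3, 35.9 and 34.5 in pcYY2 (log2 fold change 0.10, edgeR adjusted p = 0.3). GMNN encodes geminin, the inhibitor of CDT1, and had a log2 fold change of 0.06 (edgeR adjusted p = 0.529). The ratio of CDT1 to GMNN was 2.56 ± 0.0430 (SD, n = 3) in pcCon and 2.63 ± 0.227 in pcYY2, a description with no test.

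Among the 6 subunits of the MCM ring, MCM7 rose and the others did not pass. MCM7 (chromosome 7 from 100092728 to 100101940, minus strand) had an FPKM of 50.9, 52.6 and 51.1 in pcCon and 60.4, 64.7 and 61.4 in pcYY2. Each pcYY2 sample was above each pcCon sample, and the log2 fold change was 0.29 (standard error 0.0414, edgeR adjusted p = 0.0127). MCM3 had the highest FPKM of the subunits, at 84.8, 83.9 and 83.7 in pcCon and 82.8, 82.3 and 88.2 in pcYY2. The groups of MCM3 overlapped (log2 fold change 0.02, edgeR adjusted p = 0.789). MCM6 had lower values in pcYY2, with 68.9, 70.0 and 69.6 in pcCon and 65.5, 65.9 and 66.2 in pcYY2. Its groups did not overlap either, but it did not pass (log2 fold change -0.06, 95% interval -0.15 to 0.02, edgeR adjusted p = 0.288). Log2 fold changes of MCM2, MCM4 and MCM5 were 0.12, -0.11 and 0.11, all with overlapping groups.

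The 6 subunits make up a single ring. As a description, chosen after the values had been seen and with no test, MCM7 over the geometric mean of MCM2 to MCM6 was 1.04, 1.06 and 1.08 in pcCon and 1.29, 1.31 and 1.25 in pcYY2. This restates the rise of MCM7 beside the values of the other subunits. Exons of AP4M1 on the opposite strand overlap 7.9% of the MCM7 exon bases. AP4M1 had at most 474 counts in a sample, against at least 7611 for MCM7. How reads in the shared bases were counted is not given in the sources used here, and their part in the MCM7 values was not tested.

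**Figure D4:**
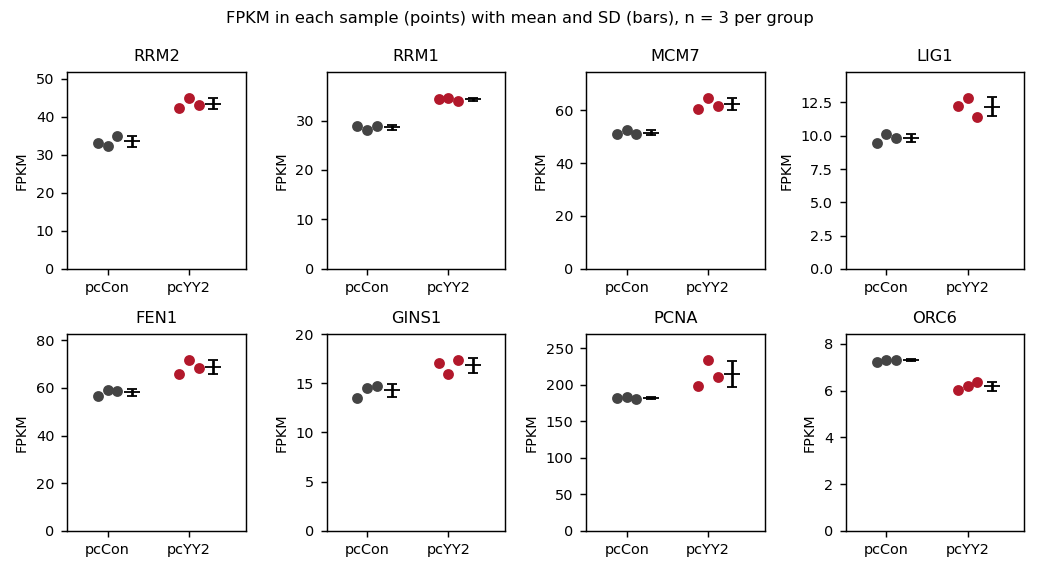
FPKM (y axis, from 0) in each sample for the 7 genes that passed the threshold and for PCNA. Points are samples, in grey for pcCon and red for pcYY2, and bars give mean and SD (n = 3). The groups do not overlap in any of the 8 panels, and ORC6 is the gene with pcYY2 below pcCon.

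The kinase that fires origins showed overlapping groups. CDC7, the catalytic subunit, had an FPKM of 16.9, 19.1 and 18.2 in pcCon and 19.1, 16.0 and 18.7 in pcYY2. DBF4, its activating subunit, had 3.82, 3.72 and 3.75 in pcCon and 4.25, 3.34 and 3.85 in pcYY2. Their log2 fold changes were 0.00475 and 0.03, and neither passed (edgeR adjusted p = 0.978 and 0.866). The 95% intervals, -0.19 to 0.20 for CDC7 and -0.19 to 0.25 for DBF4, hold changes in both directions.

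Of the 7 genes that turn the MCM ring into an active helicase, GINS1 rose. GINS1 encodes a subunit of the GINS complex and lies on chromosome 20 from 25407727 to 25452628. Its FPKM was 13.5, 14.6 and 14.7 in pcCon and 17.1, 16.0 and 17.4 in pcYY2. Although the groups were apart, the log2 fold change of 0.25 (standard error 0.0604) passed only just, with an edgeR adjusted p of 0.048, and it passed in 2 of 15 alternative fits. GINS2 had the highest FPKM of the group, with 27.7, 26.9 and 26.5 in pcCon and 25.1, 27.0 and 26.8 in pcYY2. The log2 fold change of GINS2 was -0.02 (edgeR adjusted p = 0.825).

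CDC45, GINS3 and GINS4 were picked out after their values had been seen. GINS3 had a log2 fold change of 0.24, close to that of GINS1, and an edgeR adjusted p of 0.0504, just outside the threshold. CDC45, which joins MCM and GINS in the CMG helicase, had an FPKM of 8.83, 8.64 and 9.03 in pcCon and 9.78, 11.5 and 10.01 in pcYY2 (log2 fold change 0.26, edgeR adjusted p = 0.0878). GINS4 had an FPKM of 2.08, 4.42 and 4.63 in pcCon and 1.91, 4.79 and 4.61 in pcYY2. Sample 1 of each group was thus far below the other two of its group, and the coefficient of variation within groups was 40.6%. With a standard error of 0.411 on the log2 scale, no change of GINS4 was detectable. MCM10 and TOPBP1, which help to assemble the helicase, had log2 fold changes of -0.03 and -0.01.

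No gene of the 9 polymerase and primase subunits passed after adjustment in edgeR or in DESeq2, while 2 had an unadjusted p under 0.05. Among all tested genes, 3467 of 12015 had such a p. POLA1, the catalytic subunit of polymerase alpha, had an FPKM of 15.5, 15.2 and 14.8 in pcCon and 15.7, 14.7 and 13.8 in pcYY2, and its groups overlapped (log2 fold change -0.03, edgeR adjusted p = 0.783). PRIM2, the large primase subunit, had 12.2, 10.9 and 11.6 in pcCon and 12.7, 13.0 and 12.7 in pcYY2. Here the groups were apart, at a log2 fold change of 0.16 (edgeR adjusted p = 0.135). POLD1, the catalytic subunit of polymerase delta, had a log2 fold change of 0.14 (edgeR adjusted p = 0.169). POLE, its counterpart in polymerase epsilon, was at 0.01 with a 95% interval from -0.10 to 0.12. The other 5 subunits lay between -0.11 for POLE2 and 0.13 for POLD3. PRIM1 shares exon bases on the same strand with NACA, and reads there could have been counted for either gene.

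PCNA, the sliding clamp, had the highest FPKM of all 48 genes. It was at 182, 183 and 181 in pcCon and at 199, 235 and 211 in pcYY2. Every pcYY2 sample was above the pcCon samples, and the SD was 1.18 in pcCon and 18.1 in pcYY2 (n = 3 each). The log2 fold change of 0.26 (standard error 0.0653) did not pass, with an edgeR adjusted p of 0.0545, and DESeq2 gave 0.018. Over 15 alternative fits the adjusted p ranged from 0.018 to 0.139 and passed in 3. The clamp loader subunits RFC1 to RFC5, which open the PCNA ring and place it on DNA, had log2 fold changes from -0.10 to 0.08 and did not pass.

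Both genes of lagging strand maturation rose. FEN1 encodes the nuclease that trims the flaps of Okazaki fragments, and LIG1 the ligase that joins them. FEN1 (chromosome 11 from 61792637 to 61797244) had an FPKM of 56.5, 59.3 and 58.7 in pcCon and 65.9, 71.9 and 68.5 in pcYY2. Its log2 fold change was 0.26 (standard error 0.0506, edgeR adjusted p = 0.0288). LIG1 (chromosome 19 from 48115445 to 48170603, minus strand) had 9.48, 10.1 and 9.85 in pcCon and 12.3, 12.9 and 11.4 in pcYY2. The log2 fold change was 0.33 (standard error 0.0616, edgeR adjusted p = 0.0251). The groups were apart for both genes, and each passed in 9 of 15 alternative fits. FEN1 shares 49 exon bases with FADS2 on the same strand, for which at most 696 reads were counted in a sample. The part of reads in the shared bases in the FEN1 values was not tested.

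None of the RPA genes passed in edgeR or in DESeq2. Among all tested genes, 3467 of 12015 had an unadjusted p under 0.05, and 1 of the 3 RPA genes did. This was RPA2, the middle subunit, with an FPKM of 27.3, 28.8 and 29.3 in pcCon and 32.6, 32.5 and 31.2 in pcYY2. The groups were apart, and the log2 fold change was 0.19 (standard error 0.0516, edgeR adjusted p = 0.0652). RPA1, the large DNA-binding subunit, had a log2 fold change of -0.04, and RPA3, the small one, 0.08.

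Genes of dNTP supply had the highest median among the steps with more than 2 genes, 0.24 on the log2 scale. All 4 estimates were above 0, as were 6049 of the 12015 tested. RRM1 and RRM2 encode the large and the small subunit of ribonucleotide reductase, which makes deoxyribonucleotides from ribonucleotides. RRM2 (chromosome 2 from 10122328 to 10131419) had an FPKM of 33.1, 32.3 and 35.0 in pcCon and 42.2, 45.0 and 43.0 in pcYY2. This was the largest change among the 48 genes, at a log2 fold change of 0.39 (standard error 0.049, edgeR adjusted p = 0.00834). RRM1 (chromosome 11 from 4094707 to 4138876) had 28.9, 28.0 and 28.9 in pcCon and 34.3, 34.6 and 34.0 in pcYY2, with little spread within either group. Its log2 fold change was 0.28 (standard error 0.039, edgeR adjusted p = 0.0116).

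TYMS, the thymidylate synthase, had an FPKM of 61.6, 56.8 and 59.5 in pcCon and 64.0, 70.4 and 67.4 in pcYY2. Its groups did not overlap, but its log2 fold change of 0.20 did not pass (standard error 0.055, edgeR adjusted p = 0.0672). Exons of ENOSF1 on the opposite strand overlap 39.9% of the TYMS exon bases, and how the counting treated strand is not given in the sources used here. TK1, the thymidine kinase of the salvage route, had 57.7, 60.1 and 63.3 in pcCon and 58.5, 72.9 and 61.6 in pcYY2, with overlapping groups (log2 fold change 0.11, edgeR adjusted p = 0.472).

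A further list of 41 genes of DNA replication, none of them among the 48, was counted in the same way. This list was chosen with earlier results of these data known. Of its 40 tested genes, 8 rose and 2 fell, or 25.0%, against 9.37% of all tested genes. POLD4 lay under the filter. The median log2 fold change was 0.00617, with 21 estimates above 0 and 19 below. With a sample left out, between 1 and 6 genes were higher, with 3, 1 and 2 without samples 1, 2 and 3 of pcCon and 3 and 2 without samples 2 and 3 of pcYY2. The count of lower genes was 0 without sample 1, 2 or 3 of pcCon or sample 3 of pcYY2, and 1 without sample 2 of pcYY2.

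The genes that rose included firing factors. TICRR, which brings TOPBP1 to origins, rose from an FPKM of 8.75, 8.38 and 8.19 to 11.05, 10.9 and 10.6 (log2 fold change 0.37, edgeR adjusted p = 0.0098). RECQL4, a helicase needed at origin firing, and DBF4B, a second activator of CDC7, rose with log2 fold changes of 0.31 and 0.41. The histone chaperones ASF1A and ASF1B, which deliver histones to new DNA, rose by 0.41 and 0.35 on the log2 scale, whereas the chromatin assembly subunits CHAF1A and CHAF1B were at 0.02 and -0.11 and did not pass. POLE3, a small subunit of polymerase epsilon, and DTYMK, the thymidylate kinase, rose with log2 fold changes of 0.20 and 0.26.

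TOP1 and TOP2A, both topoisomerases, moved in opposite directions. TOP1, which relaxes DNA ahead of the fork, had an FPKM of 139.7, 139 and 138 in pcCon and 120.2, 109 and 116 in pcYY2, and fell by 0.26 on the log2 scale (edgeR adjusted p = 0.0187). TOP2A, which separates replicated chromosomes, had 68.8, 66.7 and 64.9 in pcCon and 83.4, 76.9 and 79.4 in pcYY2, and rose (log2 fold change 0.27, edgeR adjusted p = 0.0154). DTL, the receptor that marks CDT1 for destruction in S phase, had 11.6, 11.3 and 10.8 in pcCon and 9.43, 8.59 and 8.70 in pcYY2. It fell by 0.32 on the log2 scale (edgeR adjusted p = 0.0215). The RNA of CDT1 did not pass, and RNA-Seq does not measure CDT1 protein.

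**Figure D5:**
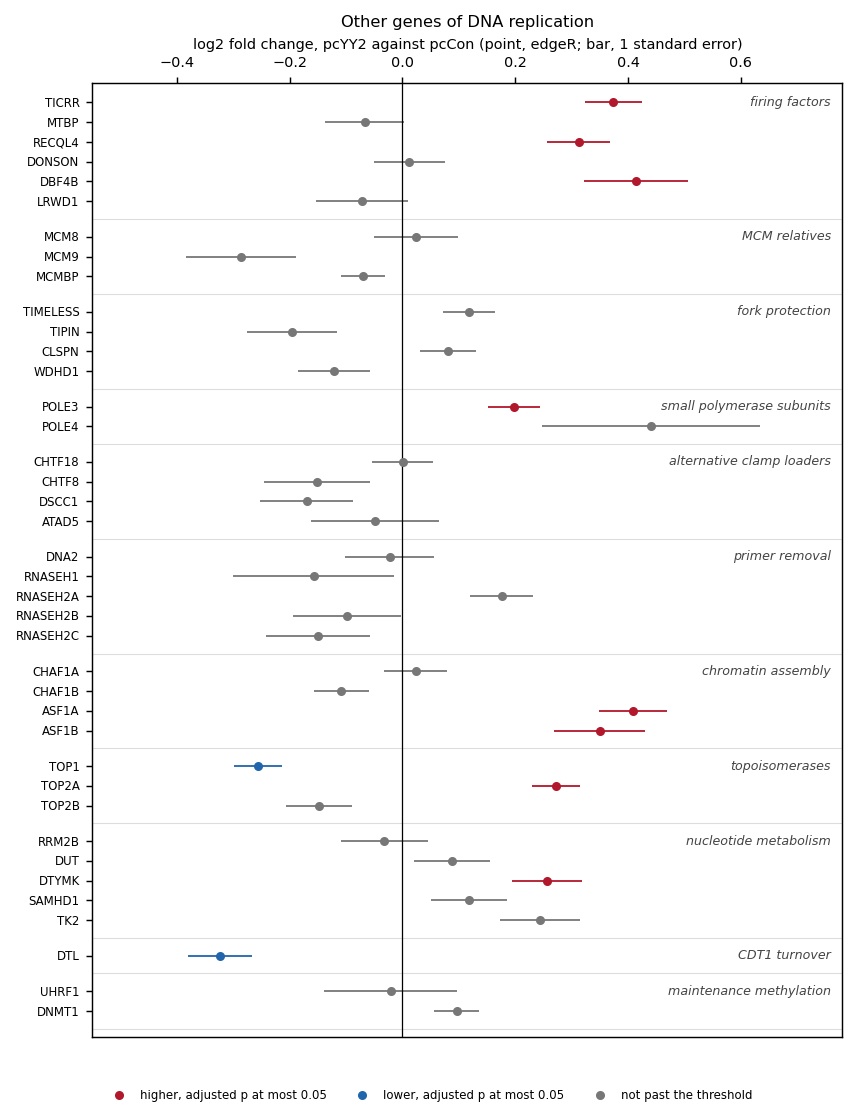
Log2 fold change (x axis, pcYY2 against pcCon) of 39 of the 40 tested genes of the further replication list, grouped by role. Points are edgeR estimates and bars 1 standard error, red for the 8 genes that rose, blue for TOP1 and DTL, and grey for the rest. POLE4 has the widest bar.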

How the data were processed

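RNA-Seq of 3 pcCon and 3 pcYY2 samples was analysed, with groups and replicate numbers from the sample labels. According to the methods, reads were mapped to GRCh38 with Tophat and FPKM was made with Cufflinks. The submitters' notes also list HTSeq and Bowtie2. The deposited table holds counts per gene, as whole numbers without normalization. It also holds FPKM, which is the count over the total count and over a divisor fixed for each gene. This was checked between the 6 samples on 10859 genes (largest deviation 0.000858%). Whether that divisor is the gene length was not checked, so comparisons of FPKM between genes take the deposited values as given. A gene with 3 counts, the floor, is at 0.101 to 0.198 CPM, for counting error only.

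Counts were fitted over 12015 genes with edgeR 4.0.16 in R 4.3.3 (quasi-likelihood test, TMM, mean FPKM of at least 1, Benjamini-Hochberg). Standard errors are the log2 fold change over the root of F, and intervals are 95%. Alternatives used DESeq2 1.42.0, limma 3.58.1 on log2(FPKM + 1) or log2(FPKM + 0.1), other scalings, filters and thresholds, a replicate block, and each sample left out. The same alternatives for the further replication genes, the mitotic and G1/S genes and YY2 were added after seeing the data, as was the motif with a leading C. Code was tested on simulated data.

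No library was a copy of another, as counts in every pair differed beyond sampling noise. Coordinates are those of the table, and exon overlaps were taken from GENCODE 44. Python 3.11.15, pandas 2.3.3, scipy 1.17.1 and matplotlib 3.10.9 were used. The genes and lists were chosen with earlier results of these data known. Sample values are given for the genes past the threshold and, in each of 10 steps, for those with the highest FPKM and the smallest p, and for others where stated. Of the further lists, those past the threshold could be named. Cuffdiff output and raw reads were not used here. Of the further replication list, 1 tested gene is counted but not reported here.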

Additional observations from a re-analysis of the deposited data

How the results depend on the processing

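Of the 6 higher and 1 lower replication genes, all kept their direction in the 15 alternative fits. Without one sample, 2 to 5 were higher and 0 to 0 lower. Samples with the same number did not deviate together (correlations -0.0246, -0.0175 and 0.000471), and with the replicate number as a block 0 were higher and 0 lower, while 13 had an unadjusted p under 0.05 there and DESeq2 without the block called 7. An adjusted p of 0.1 or less gave 11 and 2, and an unadjusted p under 0.05 gave 13 and 2. The count of lower genes rests on ORC6 and was 0 with DESeq2, with filters at a mean FPKM of 0.1, at 1 count or by filterByExpr, and 2 with upper quartile scaling. The median log2 fold change of 0.02 was 0.0462 with the filter at 0.1, 0.00359 with limma on log2(FPKM + 1) and 0.00365 on log2(FPKM + 0.1). Among all tested genes, 543 were higher and 583 lower. These counts were 51 and 50 with the block, 138 to 412 and 147 to 393 without one sample, 1141 and 1154 at an adjusted p of 0.1, and 1727 and 1740 at an unadjusted p under 0.05. The 8 higher and 2 lower genes of the further replication list were 0 and 0 with the block and 1 to 6 and 0 to 2 without one sample. Upper quartile scaling gave 5 higher, and an unadjusted p under 0.05 gave 5 lower. The 15 higher mitotic genes were 2 with the block and 5 to 14 without one sample. The 5 lower G1/S genes were 0 with the block, 3 with the filter at 0.1 and 0 to 4 without one sample. Fits without one sample held fewer samples, and the cause of the different counts was not tested. Each replication gene had at least 330 counts per sample.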

Other observations

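Cell cycle genes next to replication were counted in the same way, with the lists chosen with earlier results of these data known. Of 16 tested genes of the G1/S transition, 5 fell, namely CCND1, CCNE1, CCNE2, CDK6 and SKP2 (31.2%, against 4.85% of all tested genes lower). CCNE1, the cyclin that drives CDK2 at entry into S phase, had an FPKM of 9.10, 8.73 and 9.05 in pcCon and 6.57, 6.83 and 6.70 in pcYY2 (log2 fold change -0.40, edgeR adjusted p = 0.0133). The groups were apart. The median of the 16 genes was 0.00275 on the log2 scale. Without sample 1 or 3 of pcCon 0 of them were lower, and without sample 2 of pcCon or samples 1 or 3 of pcYY2 the counts were 1, 3 and 2.

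Of 20 mitotic genes, 15 rose, against 4.52% of all tested genes, and all 20 estimates were above 0, as were 6049 of the 12015 tested. CCNA2, the cyclin of S and G2 phase, had an FPKM of 43.1, 43.2 and 42.3 in pcCon and 62.5, 55.7 and 61.6 in pcYY2 (log2 fold change 0.50, edgeR adjusted p = 0.00553). PLK1, a mitotic kinase, had 17.1, 15.4 and 16.3 in pcCon and 23.2, 22.6 and 22.01 in pcYY2 (log2 fold change 0.49, edgeR adjusted p = 0.00587). The pcYY2 samples lay above all pcCon samples for both genes. Without sample 1, 2 or 3 of pcCon the counts were 5, 5 and 6, and without sample 3 of pcYY2 the count was 6.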
